A study of Arabidopsis thaliana with 4 samples.

Results

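The peaks described here were found in only 1 of the 2 SHL ChIP replicates and lay in protein-coding genes. They were taken from the authors' peak list of each replicate. A nuclear peak was kept if it shared no base with any peak of the other list and if its midpoint lay in the body of a protein-coding gene. Replicate 1 gave 1069 such peaks among its 2379 genic peaks, and replicate 2 gave 937 among 2215. Together they made up 2006 of the 4594 genic nuclear peaks, in lists of 3678 and 3494 peaks in all. They are called single-replicate peaks, and genic peaks that overlapped the other list are called shared. The presence and absence of a call chose them, so no test of that choice is given, and each list stands for 1 sample.

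SHORT LIFE (SHL) is a plant chromatin reader with a BAH domain, which binds the repressive mark H3K27me3, and a PHD finger, which binds methylated H3K4. Its close relative is EBS, and both act with the Polycomb machinery that keeps developmental genes silent outside their proper tissue or time. Genes under such control include floral, seed and meristem regulators, many of which are used in only a few cells of a seedling.

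Chromatin came from whole Arabidopsis thaliana seedlings of ecotype Col-0, about 10 days old, raised on MS medium in long days (16 h light, 8 h dark) without further treatment. All plants were ebs shl mutants that carried SHL tagged with HA under its native promoter, and the tagged protein was pulled down with an antibody against HA. Every value therefore comes from a background mutant in EBS too. The number of transgenic lines is not given in the sources used here. Both ChIP samples share this genotype, and 2 input samples of the same plants were not analysed here. Binding in few cells and weak binding in many cells cannot be told apart in whole seedlings. Nothing in the labels says that the replicates were separate cultures, so their differences may be technical. Read depth is unknown from these lists, and its part in the absence of a call was not tested.

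The single-replicate peaks were mostly calls of low score. The score is the authors' own, from their peak caller, and its scale is not stated. Sequencing depth can move it, and the scores, bands and cut-offs given here are the deposited values without adjustment for depth. Values of both lists are given side by side. In replicate 1 the single-replicate peaks scored from 20.01 to 128, with a median of 26.7 and quartiles of 22.6 and 34.0. In replicate 2 they scored from 20.01 to 87.3, with a median of 26.4 and quartiles of 22.6 and 32.9. In both lists most of these peaks lay near the low end of the deposited scores. Shared genic peaks had medians of 45.7 in the first list and 48.0 in the second. Ranked among all nuclear peaks of their list, single-replicate peaks had median percentiles of 27.6 and 27.0. Those of shared genic peaks were 56.0 and 56.8. A score below 30 was given to 63.8% of the single-replicate peaks of replicate 1 and to 26.0% of its shared genic peaks. In replicate 2 these shares were 66.3% and 25.2%.

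The share of genic peaks without a partner was 44.9% in replicate 1 (exact 95% interval 42.9 to 47.0, counting error only) and 42.3% in replicate 2 (40.2 to 44.4). Over all nuclear peaks, in genes or not, 37.7% and 35.5% had no partner, and outside protein-coding genes 24.4% and 23.7% had none. Split by score, the share in genes was lower in each higher band. In replicate 1 it was 69.5% for scores of 20 to 25, 51.2% for 30 to 40, 24.1% for 50 to 75 and 10.0% for 75 to 100. In replicate 2 the same bands gave 67.0%, 48.8%, 19.6% and 6.19%. From a score of 100 upwards, 2 of 351 genic peaks of replicate 1 had no partner (0.570%, exact interval 0.0691 to 2.04). In replicate 2 this was 0 of 338, with an upper exact limit of 1.09%. Within a band, peaks in and outside genes were closer to each other than their totals. In replicate 1 the shares outside genes were 80.2% for scores of 20 to 25, 47.6% for 30 to 40 and 24.4% for 50 to 75. In replicate 2 they were 77.4%, 50% and 10.98%. Shared peaks outside genes had much higher median scores than those in genes, at 375 and 288.

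**Figure D1:**
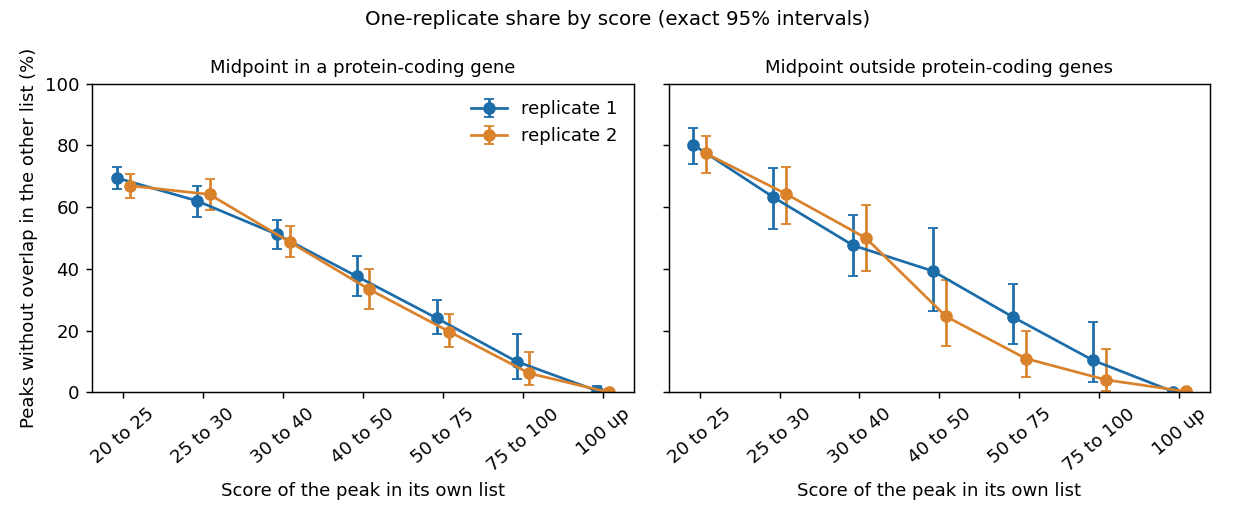
Share of peaks without overlap in the other list (vertical axis, percent) in bands of the peak's own score (horizontal axis), for peaks in protein-coding genes (left) and outside them (right). Points are shares, bars exact 95% intervals from counting error; in genes the share ran from 69.5% and 67.0% in the lowest band to 0.570% and 0% from 100 upwards.

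The highest-scoring single-replicate peak of replicate 1 was on BRC1 (AT3G18550), a TCP transcription factor that represses the outgrowth of axillary buds. It scored 128 at chromosome 3, 6383316 to 6385964, and spanned 2649 bp. Replicate 2 listed no peak on the gene, and its nearest call lay 2043 bp away with a score of 40.5. Next in replicate 1 came LHCB4.2 (AT3G08940), for a minor antenna protein of photosystem II, with a score of 105 at chromosome 3, 2717318 to 2719480. The nearest call of replicate 2 was 18246 bp away. BRC1 and LHCB4.2 were the 2 genic peaks from 100 upwards without a partner.

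Genes of transcription factors came next in replicate 1. NAC020 (AT1G54330) scored 94.8 at chromosome 1, 20279230 to 20281406. NAC073 (AT4G28500), a regulator of secondary walls, scored 87.0 at chromosome 4, 14083075 to 14084390. SPL (AT4G27330), the SPOROCYTELESS gene needed to form spore mother cells, scored 81.9 at chromosome 4, 13681881 to 13683962. Their nearest calls in replicate 2 were 11252, 3915 and 17602 bp away. AMT1;3 (AT3G24300), an ammonium transporter gene of roots, scored 81.8 at chromosome 3, 8806124 to 8807469, with a call of replicate 2 only 845 bp away. AT4G36850 scored 81.1 and AT1G49330 scored 81.0. The latter stood 53985 bp from any call of replicate 2.

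In replicate 2 the highest score was 87.3, on AT1G36060 at chromosome 1, 13454465 to 13455994. This was the only peak among the 8 highest of either list that lay in a gene-poor window of 1 Mb, meaning one whose count of protein-coding genes is below 50% of the median over windows. HWI1 (AT1G70690), for a protein of plasmodesmata, scored 84.8 at chromosome 1, 26651616 to 26652976. AT3G12420 scored 81.3 at chromosome 3, 3947435 to 3949465, and a peak of replicate 1 with a score of 59.1 ended 258 bp from it, on AT3G12410. AT2G35640 scored 79.3. APL (AT1G79430), which sets phloem identity, scored 79.1 at chromosome 1, 29877791 to 29879474, and was 18834 bp from any call of replicate 1. ELI3-2 (AT4G37990), an elicitor-induced alcohol dehydrogenase gene, scored 77.8 at chromosome 4, 17855602 to 17857465. PLC9 (AT3G47220), a phospholipase C gene, scored 73.7, and CPB (AT1G71790), for the beta subunit of the actin capping protein, scored 71.8. None of the 16 genes named as highest in either list was touched by any peak of the other replicate.

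Single-replicate peaks were narrower than shared ones. The median single-replicate peak spanned 992 bp in the first list and 1074 bp in the second, against 1263 and 1439 bp for shared genic peaks. They covered 1.13 and 1.09 Mb. Width went with score within each list (Spearman's rho 0.55 over 1069 peaks and 0.56 over 937, a description). At equal score the difference in width was smaller: for scores of 20 to 25 the medians were 847 bp for single-replicate and 894 bp for shared peaks in replicate 1, and 915 and 1021 bp in replicate 2. They were also the narrower in both lists for scores of 25 to 30 and of 30 to 40. For scores of 40 to 50 the single-replicate peaks were the wider, at 1351 against 1326 bp in replicate 1 and 1513 against 1474 bp in replicate 2. From 50 to 100 the lists differed, at 1439 against 1545 bp in replicate 1 and 1872.5 against 1727 bp in replicate 2.

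**Figure D2:**
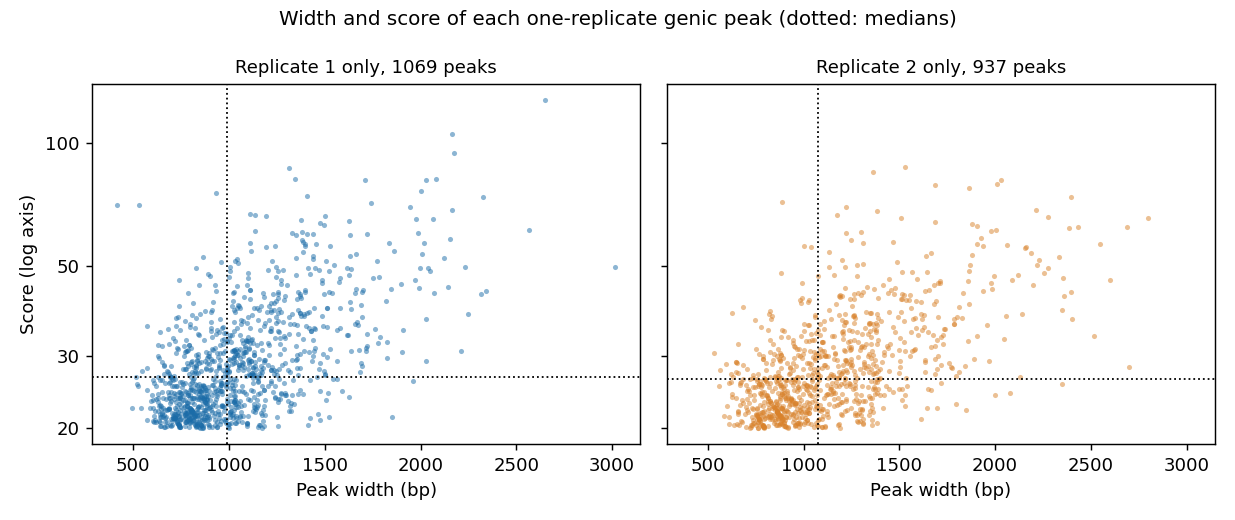
Width in bp (horizontal axis) and score (vertical axis, log scale) of each single-replicate genic peak, with 1069 peaks of replicate 1 on the left and 937 of replicate 2 on the right. Dotted lines mark the medians, at 992 bp and 26.7 and at 1074 bp and 26.4; most peaks crowd at low score and about 1 kb of width.

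Their position in the gene and genome was similar between the lists in most measures. The whole peak lay inside the gene body for 46.0% of the single-replicate peaks in replicate 1 and 40.2% in replicate 2, against 33.0% and 25.7% of the shared genic peaks. The peak covered the whole body for 7.39% and 9.18% of them, against 16.0% and 22.5%. Median gene length was 1856 and 1943 bp in the single-replicate lists and 1878 and 1869 bp for shared genic peaks. Gene-poor windows held 2.34% of the single-replicate peaks of replicate 1 (exact 95% interval 1.52 to 3.43) and 1.49% of those of replicate 2 (0.819 to 2.49). Of the shared genic peaks they held 5.73% and 5.79%. At equal score the difference was smaller. For scores of 20 to 25 the shares were 1.79% against 2.54% in replicate 1 and 1.55% against 3.14% in replicate 2. Single-replicate peaks had the higher share for 25 to 30 in replicate 1, at 3.85% against 2.098%, and for 30 to 40 in replicate 2. In the other bands up to 100 they had the lower share. From 100 upwards the lists held 2 and 0 single-replicate peaks, too few to compare with 349 and 338 shared ones. Chromosome by chromosome, the share of genic peaks without a partner ran from 43.2% on chromosome 5 to 48.3% on chromosome 4 in replicate 1. In replicate 2 it ran from 40.1% on chromosome 3 to 43.8% on chromosome 4. Where 2 protein-coding genes overlapped, the midpoint counted for both, which was so for 10 peaks of replicate 1 and 15 of replicate 2. The lists differed in midpoints that also lay in a gene that is not protein-coding, at 0.374% in replicate 1 and 2.45% in replicate 2. Of the shared genic peaks these were 1.68% and 2.03%.

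Few single-replicate peaks missed the overlap narrowly. The median gap to the nearest peak of the other list was 9475 bp for replicate 1, while for replicate 2 it was 9118 bp. To the nearest peak of their own list the median gaps were similar, at 10224 and 9925 bp. The gaps to the other list were thus of the size of the spacing within a list. A gap of at most 500 bp was found for 58 peaks of replicate 1 (5.43%) and 46 of replicate 2 (4.91%). A gap of at most 1000 bp was found for 113 (10.6%) and 94 (10.0%). Gaps over 50 kb were found for 60 and 58 peaks, up to 120992 bp on NPC2 in replicate 1 and 130506 bp on AT3G05150 in replicate 2. The single-replicate peaks nearest to the limit were on ABCG19 (AT3G55130), an ABC transporter gene, with a gap of 8 bp in replicate 1, and on AT3G22970, with a gap of 6 bp in replicate 2. NRT2.4 (AT5G60770), a high-affinity nitrate transporter gene, was next in both lists, since 22 bp separated its peaks. Peaks that counted as shared by the smallest overlap were on PDX1.1 (AT2G38230), a gene of vitamin B6 synthesis, with 3 bp and on AT3G12710 with 6 bp in replicate 1. In replicate 2 they were on AT5G25300 with 10 bp and on AT3G01830 with 12 bp. The peaks of each list named here for the limit had scores of 20.9 to 27.4.

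**Figure D3:**
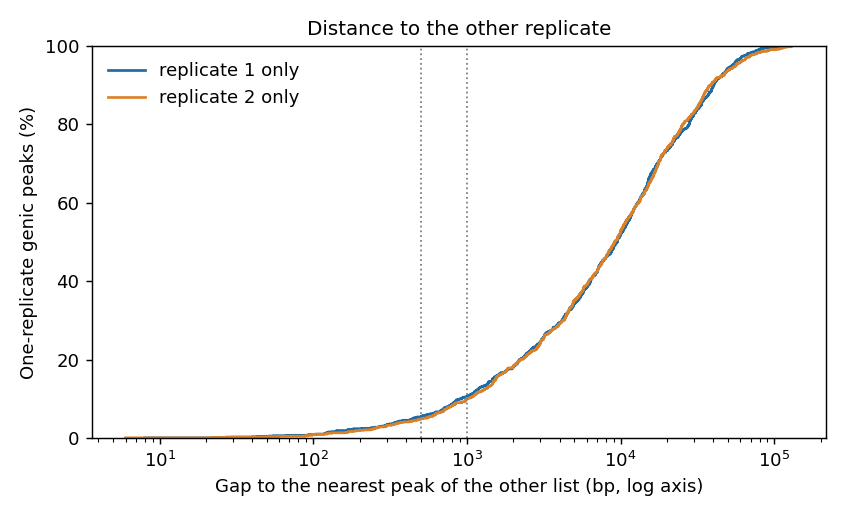
Cumulative share of single-replicate genic peaks (vertical axis, percent) by the gap to the nearest peak of the other list (horizontal axis, bp, log scale). The curves of both lists lie nearly on each other; dotted lines mark 500 bp, reached by 5.43% and 4.91%, and 1000 bp, reached by 10.6% and 10.0%.

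The peaks fell in 1057 genes for replicate 1, or 3.85% of the 27444 protein-coding genes, and in 932 genes for replicate 2, or 3.4%. Of these genes, 978 (92.5%) and 870 (93.3%) were touched by no peak of the other replicate anywhere in the body. The midpoint of a shared peak was also present in 33 and 19 of them. Several peaks of the same list lay in 21 genes of replicate 1 and 19 of replicate 2. STM (AT1G62360), the homeobox gene that maintains the shoot meristem, held 3 peaks of replicate 2, with scores of 24.2, 26.4 and 23.7, and no peak of replicate 1. MPL1 (AT5G14180), a lipase gene induced by aphids, held 3 of replicate 1, with scores of 23.3, 43.8 and 25.4. MPL1 was picked after its values were seen.

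In 31 genes the replicates gave separate peaks that did not meet. This is 2.93% of the genes of replicate 1 and 3.33% of those of replicate 2, while 3.4% and 3.85% of all protein-coding genes, 0.113% in both, held a single-replicate peak of the other list. These shares cannot be weighed against each other, because the rule drops peaks that overlap and so lowers the count of genes in both lists. With a reciprocal overlap of 50% the count was 194, and with peaks within 1000 bp taken as shared it was 9. The genes were long, with a median of 3137 bp against 2078 bp over all protein-coding genes. The need for 2 separate peaks in a gene favours long genes. The gap between the peaks had a median of 670 bp and ran from 22 to 2364 bp, and none of these genes held the midpoint of a shared peak. JKD (AT5G03150), a zinc finger regulator of root tissue patterning, had a peak of 43.4 in replicate 1 at chromosome 5, 744931 to 747270. Its peak in replicate 2 scored 44.0, at 747440 to 748919. WRKY14 (AT1G30650) had peaks of 43.6 and 34.3 separated by 347 bp. TGA10 (AT5G06839), a bZIP factor gene of anther development, had a peak of 43.1 in replicate 1 between peaks of 20.4 and 28.9 in replicate 2. Its partner in anther development, TGA9, was also among the 31, with 33.3 and 22.6, and was picked after its values were seen. The remaining genes named by rank were AT1G71691, with 38.5 and 29.3 (the peak of replicate 1 also lay in AT1G71690), AT3G51560, with 29.3 and 62.5, and AT1G73810, with 31.9 and 26.4.

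**Figure D4:**
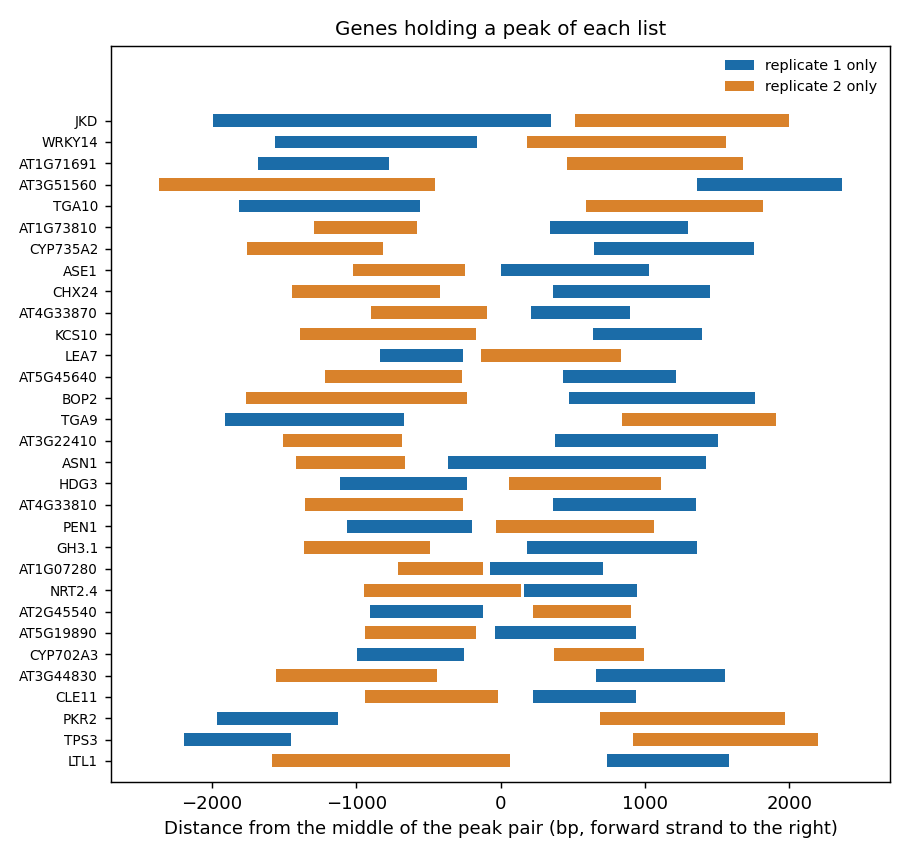
The 31 genes that held a single-replicate peak of each list, ordered by the lower of the 2 score percentiles. Bars show the extent of the highest-scoring peak of each replicate in bp from the middle of the pair (horizontal axis); bars in a row never meet, with gaps of 22 to 2364 bp.

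Neighbouring genes also took part in both lists. For 55 of 1056 genes with a peak of replicate 1 alone (5.21%), the next protein-coding gene along the chromosome held a peak of replicate 2 alone, beside 3.4% over all genes. For 54 of 932 genes of replicate 2 (5.79%) the next gene held one of replicate 1, beside 3.85%. Next genes within the same list made up 5.78% and 6.33%. Outside gene-poor windows the shares across lists were 5.14% and 5.88%, beside 3.51% and 3.94% of genes there. A cluster on chromosome 4, picked after its values were seen, held peaks of both lists close together. Its genes of different lists are not among the pairs across lists counted above, because CRU3 lay between them. HAE, a receptor kinase gene of floral organ abscission, had a peak of replicate 1 at 14077782 to 14079278 with a score of 63.1. NAC073 followed with its peak of 87.0 in replicate 1. The storage protein gene CRU3 then held a shared peak, which scored 50.6 in replicate 1 and 30.2 in replicate 2. NAC074 (AT4G28530) held a peak of replicate 2 alone at 14090393 to 14093079, which scored 62.4 and began 971 bp after the peak of replicate 1 on CRU3. The shared peak of replicate 2 on CRU3 ended just before this start, at 14090329.

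Gene groups were described by how many of their genes held a single-replicate peak, beside 7.13% of all protein-coding genes for either list. Of the 32 groups, which were 11 gene lists and 21 families defined by symbol, 20 lay above all genes in both lists, 1 in that of replicate 1 alone and 3 in that of replicate 2 alone. In 8 groups neither share was above, and 7 of these held no single-replicate peak at all. The groups share genes and were chosen with earlier results of these data known, so this count is a description.

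Floral organ identity genes, mostly MADS-box factors that are silent in seedling leaves, held single-replicate peaks in 7 of 15 (46.7%, exact 95% interval 21.3 to 73.4), while 3 held the midpoint of a shared peak. All scored low. In replicate 1 they were AGL8 (AT5G60910, also called FUL), with 21.9 at chromosome 5, 24502169 to 24503304, AP1 (AT1G69120), with 21.7 at chromosome 1, 25985668 to 25986833, and SHP1, with 21.2. Both AGL8 and AP1 also held a shared peak, 423 and 1625 bp away in replicate 2. In replicate 2 they were PI (AT5G20240), a petal and stamen gene, with 30.02 at chromosome 5, 6829438 to 6830993, STK (AT4G09960), an ovule gene, with 2 peaks of 29.5 and 26.0, CAL, with 25.4, and AGL6, with 27.4. Neither PI nor STK was touched by a peak of replicate 1. SHP1, CAL and AGL6 were named after their values were seen.

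Flowering-time genes held single-replicate peaks in 5 of 41 (12.2%, interval 4.08 to 26.2), an interval that includes the 7.13% of all protein-coding genes. Replicate 2 gave 4 of the 5. SNZ (AT2G39250), an AP2-like repressor of flowering, scored 28.4 at chromosome 2, 16389890 to 16391070. FLC (AT5G10140), the floral repressor silenced by cold, scored 27.2 at chromosome 5, 3178170 to 3179856. The others were VIN3, which acts in that silencing, with 20.5, and LFY, with 21.9, both named after their values were seen. LFY also held the midpoint of a shared peak. Replicate 1 gave E12A11 (AT1G18100), the MFT gene of the FT family, with 21.6. FT held no peak in either list.

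Meristem and patterning genes held them in 6 of 28 (21.4%, interval 8.30 to 41.0) and shared peaks in 10. WOX4 (AT1G46480), a homeobox gene of the vascular cambium, scored 52.8 in replicate 1 at chromosome 1, 17236795 to 17238427. PLT1 (AT3G20840), a root stem cell factor, scored 29.5 in replicate 1. In replicate 2 BBM (AT5G17430), an embryo factor of the same kind, scored 28.2, and WOX1 (AT3G18010) scored 26.5 beside a shared peak on the gene. STM, with its 3 peaks, and AFO (FIL), with 23.3 in replicate 1 and named after its values were seen, made up the rest.

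Seed maturation genes held them in 5 of 21 (23.8%, interval 8.22 to 47.2), and 4 of these came from replicate 2. LEC1 (AT1G21970), a master regulator of embryo development, scored 50.1 at chromosome 1, 7727268 to 7728547. GEA6 (AT2G40170, also called EM6), for a late embryogenesis protein, scored 31.6. ABI5 and SESA4, named after their values were seen, scored 22.5 and 23.6. In replicate 1 the single gene was SESA5 (AT5G54740), for a seed albumin, with 21.7. Photosynthesis genes leaned the other way, with 4 of 23 in replicate 1 and 1 in replicate 2. Next to LHCB4.2, RCA (AT2G39730), for Rubisco activase, scored 36.2 in replicate 1 at chromosome 2, 16570828 to 16571923. PSBO1 (AT5G66570), for a protein of the oxygen-evolving complex, scored 27.3 in replicate 2. The others, named after their values were seen, were LHCB2.2 with 27.4 and PSAE-1 with 23.2, both in replicate 1. The body of LHCB2.2 was also touched by a peak of replicate 2, and the nearest call of replicate 2 was 360 bp from its peak. With LHCB4.2 and LHCB2.2 added to the 10 that held shared peaks, 1 of the 13 genes with a light-harvesting symbol was left without the midpoint of any peak. The difference between the lists was not tested, since each is 1 sample.

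Hormone genes were spread over both lists. Among auxin genes 6 of 26 held single-replicate peaks (23.1%, interval 8.97 to 43.6), 3 in each list. In replicate 1 EIR1 (AT5G57090, also called PIN2), an efflux carrier gene of the root, scored 47.4 at chromosome 5, 23101255 to 23102882. TAA1 (AT1G70560), for the first step of auxin synthesis, scored 42.9 there, and PIN5, named after its values were seen, scored 35.7. In replicate 2 YUC5 (AT5G43890) and YUC9 (AT1G04180), whose products complete that synthesis, scored 57.3 and 31.1. YUC5 lay at chromosome 5, 17648981 to 17650445, and was 14292 bp from any call of replicate 1. LAX3, named after its values were seen, scored 20.2. Among 27 cytokinin and abscisic acid genes, 4 held single-replicate peaks (14.8%, interval 4.19 to 33.7) and 13 shared ones. That interval includes the 7.13% of all protein-coding genes. CKX3 (AT5G56970), which degrades cytokinin, scored 49.5 in replicate 1, 125 bp from a peak of replicate 2, and also held the midpoint of a shared peak. IPT7 (AT3G23630), which makes cytokinin, scored 23.5. NCED3 (AT3G14440), for the drought-induced step of abscisic acid synthesis, scored 55.6 in replicate 2 at chromosome 3, 4831462 to 4833620. NCED9 (AT1G78390) scored 21.0 there.

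Defence and stress genes held single-replicate peaks in 6 of 23 (26.1%, interval 10.2 to 48.4). BGL2 (AT3G57260, also called PR2), a salicylic acid marker, scored 36.5 in replicate 1. DREB1A (AT4G25480, also called CBF3), a cold response factor, scored 20.5 in replicate 1. In replicate 2 RHL41 (AT5G59820, also called ZAT12) scored 31.1 and LTI78 (AT5G52310, also called RD29A) scored 21.5, and CBF1 and STZ (ZAT10), named after their values were seen, scored 21.3 and 20.8. The Polycomb and chromatin list held them in 3 of 24 (12.5%, interval 2.66 to 32.4) and a shared midpoint in 1. That interval includes the 7.13% of all protein-coding genes. FIS2 (AT2G35670), a Polycomb subunit gene of the seed, scored 29.5 in replicate 1 at chromosome 2, 14994014 to 14995041. It was followed in replicate 1 by AT3G23060, with 23.9. EBS (AT4G22140) scored 25.7 in replicate 2 at chromosome 4, 11729315 to 11730386. The plants carried the ebs mutation, whose kind is not stated. SHL held no single-replicate peak. Peaks of both replicates touched its body and overlapped each other, but neither had its midpoint in the body. The plants carried a tagged SHL transgene, and signal from it was not separated from that of the native gene. No single-replicate peak fell in the 14 circadian clock genes (upper exact limit 23.2%) or in the 15 housekeeping genes (upper limit 21.8%). Both limits lie above the 7.13% of all protein-coding genes, so these small lists do not show a lower share.

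**Figure D5:**
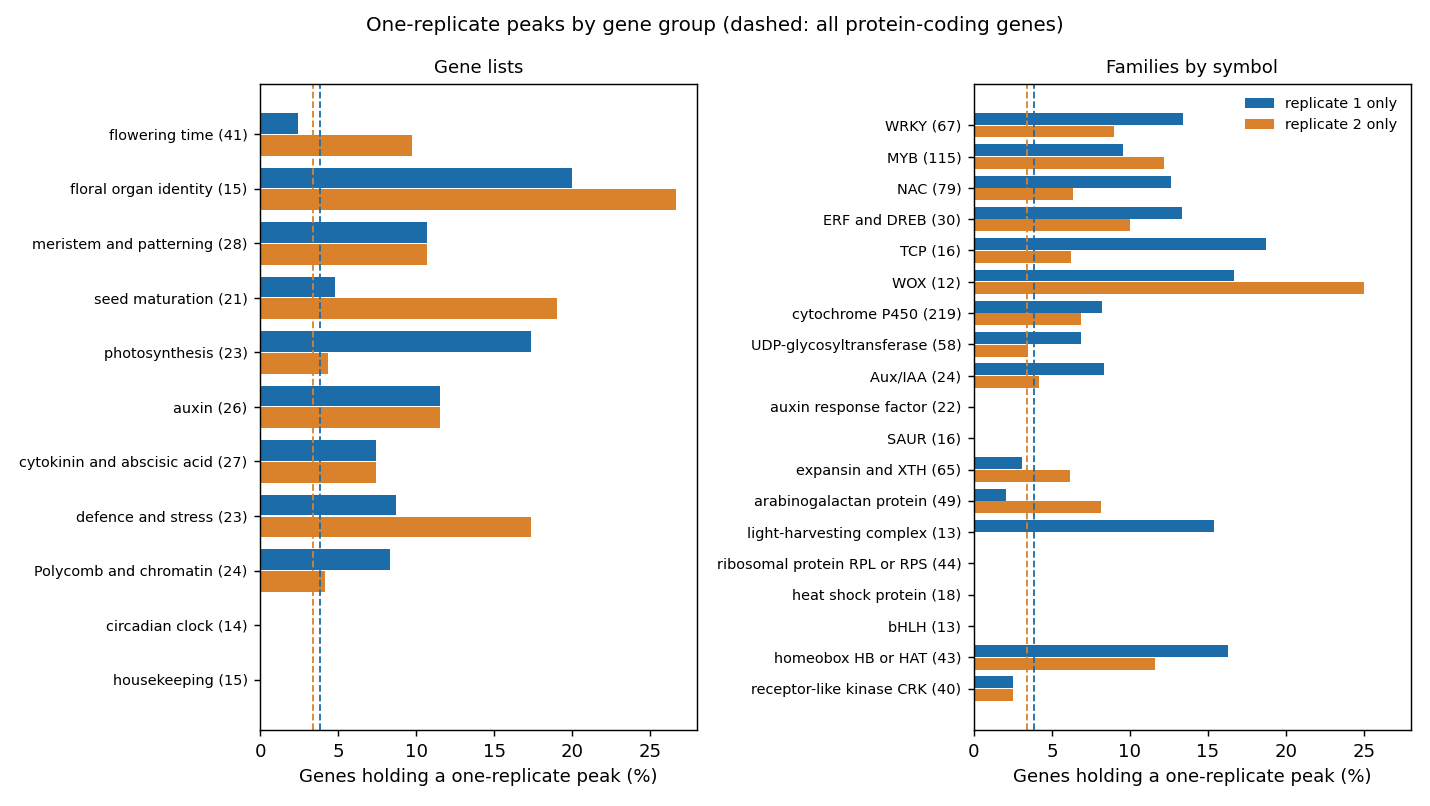
Percent of the genes of each group that held a single-replicate peak (horizontal axis) of replicate 1 or replicate 2, for gene lists (left) and families by symbol (right) of at least 10 genes, whose number is in brackets. Dashed lines mark all protein-coding genes, at 3.85% and 3.4%; floral organ identity genes reach 20% and 26.7%, and circadian clock, housekeeping and ribosomal protein genes have no bar.

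Transcription factor families had more genes with single-replicate than with shared peaks in several cases. Of 115 MYB genes, 25 held single-replicate peaks (21.7%, exact 95% interval 14.6 to 30.4) and 8 shared ones, beside 7.13% and 4.93% of all protein-coding genes. Replicate 1 gave 11 and replicate 2 gave 14. Of 79 NAC genes, 15 held single-replicate peaks (19.0%, interval 11.04 to 29.4), 10 in replicate 1 and 5 in replicate 2, and 4 held shared ones. Of the NAC genes, 5 had a peak of at least 50, against 3 WRKY, 1 HB or HAT and 0 MYB genes. Beside NAC020, NAC073 and NAC074, NAC046 scored 71.5 in replicate 1 and NAC045, a gene of sieve element maturation, scored 66.0 in replicate 2. Of 43 homeobox genes with an HB or HAT symbol, 12 held single-replicate peaks (27.9%, interval 15.3 to 43.7) and 6 shared ones. HB51 scored 53.8 in replicate 2 and HB-3 scored 41.4 in replicate 1. WOX genes had 5 of 12 with single-replicate peaks (41.7%, interval 15.2 to 72.3) and 2 with shared ones.

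Several other families had similar numbers of genes in either class, beside 7.13% with single-replicate and 4.93% with shared peaks over all protein-coding genes. A gene can count in both classes. WRKY genes had 14 of 67 with single-replicate peaks (20.9%, interval 11.9 to 32.6) and 12 with shared ones, and WRKY58 scored 74.2 in replicate 1. ERF and DREB genes had 7 of 30 and 8. TCP genes had 4 of 16 and 4, not counting BRC1, which stands under its own symbol. Among 219 cytochrome P450 genes, 31 held single-replicate peaks (14.2%, interval 9.82 to 19.5) and 26 shared ones. CYP71A23 scored 47.0 and CYP78A5 scored 46.3 in replicate 1, and CYP706A3 scored 37.9 in replicate 2. GPAT genes of cutin and suberin synthesis had 4 of 9 and 4, with 2 genes in both classes and 3 without the midpoint of any peak. GPAT6, which also held the midpoint of a shared peak, scored 75.4 in replicate 1. More genes held shared than single-replicate peaks among arabinogalactan protein genes, with 5 of 49 and 14, and among UDP-glycosyltransferase genes, with 6 of 58 and 11. Expansin and XTH genes had 6 of 65 in each class, and Aux/IAA genes had 3 of 24 in each. Of the 9 IDD zinc finger genes 2 held single-replicate peaks and 4 shared ones. CRK receptor kinase genes had 2 of 40 and none. The exact intervals of the arabinogalactan protein, UDP-glycosyltransferase, expansin and XTH, Aux/IAA, IDD and CRK groups all include 7.13%. No single-replicate peak fell in 44 ribosomal protein genes (upper exact limit 8.04%), 22 auxin response factor genes (15.4%), 18 heat shock protein genes (18.5%), 16 SAUR genes (20.6%) or 13 bHLH genes by symbol (24.7%). All these limits lie above the 7.13% of all protein-coding genes. Family members were named after their values were seen, except those named by the rule above.

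Some close relatives were called in different replicates. These pairs were picked after their values were seen, so how often they occur is not shown by them. MYB83 was called in replicate 1 with 22.1 and MYB46, its partner in switching on secondary wall synthesis, in replicate 2 with 20.6. MYB0 (the GL1 gene of trichome fate) was called in replicate 1 with 24.3 and its relative MYB23 in replicate 2 with 25.2. MYB21 and MYB24, which act together in stamen maturation, scored 23.6 in replicate 1 and 21.5 in replicate 2. None of these genes had a call of the other replicate within 1 kb of its peak, the nearest being 1708 bp from MYB24. MYB84 scored 23.9 in replicate 1 and MYB68 scored 27.2 in replicate 2. MYB119 and MYB64, which act together in the female gametophyte, scored 37.0 in replicate 1 and 48.0 in replicate 2. DREB1A and CBF1, adjacent cold response genes on chromosome 4, scored 20.5 in replicate 1 and 21.3 in replicate 2, with 2838 bp between the peaks. The neighbouring IDD4 and IDD5 scored 20.8 in replicate 1 and 33.9 in replicate 2. WRKY70 and WRKY54, related factors of salicylic acid signalling, scored 22.6 in replicate 1 and 22.9 in replicate 2. NAC073, called in replicate 1, and NAC074, called in replicate 2, are described above as genes of the same cluster, not as close relatives. Other relatives fell in the same list: MYB11 and MYB12, which drive flavonol synthesis, scored 41.3 and 26.7 in replicate 2. WOX11 scored 46.2 there and WOX12, its relative in root initiation, held 2 peaks of 23.2. MYB52 and MYB54 scored 26.4 and 23.0 in replicate 2, and TCP1 and TCP12 scored 43.0 and 26 in replicate 1.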

How the data were processed

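SHL ChIP-seq peak lists of 2 samples were used, grouped and numbered by their titles. The tools were MACS 1.4, Bowtie2 2.2.8 and SAMtools 1.3 and the build TAIR10, per the submitters' processing notes. Settings, filters and control are not given in the sources used here. Each peak has a score that the authors deposited, with no header that names its scale. Read depth is unknown, and intervals (exact Clopper-Pearson, 95%) cover counting error only.

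Peaks on the 5 nuclear chromosomes were compared in Python 3.11.15 (pandas 2.3.3, scipy 1.17.1) with an overlap of at least 1 bp, in code tested on simulated data. Gene bodies came from a RefSeq table of assembly TAIR10.1 without strand, exons or sequence, and no gene coordinate is printed. Of all 7155 midpoints, 64.2% lay in protein-coding bodies, against 36.1% and 35.9% after shifts of -1500 and 1500 bp. No sequence was used here. The planned motif counts in promoters were not run for that reason. Gene-poor windows were 20 of 121.

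Members and lists were chosen with earlier results of these data known. No enrichment or other test was run. Of 262 list entries, 222 were matched by symbol, 27 by synonym and 8 by locus identifier, and 5 were not matched. Genes named were the 8 highest-scoring peaks of each list, the 2 nearest to the overlap limit on either side, up to 2 per gene list and replicate by score, the 6 genes with peaks of both lists ranked by the lower percentile, and SHL, EBS, FLC and FT.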

Additional observations from a re-analysis of the deposited data

Results flagged for a closer look

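Peaks outside the nuclear chromosomes entered no comparison. On the mitochondrial chromosome replicate 1 listed 10 peaks and replicate 2 listed 7, above the 3 that a count of 0 allows. Whether the input samples hold such a signal was not examined.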

How the results depend on the processing

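Counting only peaks on chromosome arms, or any overlap with a gene body in place of the midpoint, left all 5 main values within 1.5 times or within the interval. The 1 bp overlap set the boundary of the class. With a reciprocal overlap of 50%, 54.7% and 51.6% of genic peaks had no partner, and 194 genes held peaks of both lists. When peaks within 500 bp counted as shared, the shares were 42.5% and 40.2% and 18 genes held peaks of both lists. Within 1000 bp they were 40.2%, 38.1% and 9. Without genes touched by the other list, an alternative chosen after seeing the data, the shares were 41.5% and 39.4% and, by construction, no gene (0) was in both. The score mattered most. Members scoring at least 50 numbered 68 and 50 (10.1% and 7.59% of genic peaks so scored, 0 genes in both), and at least 100 they numbered 2 and 0 (0.570% and 0%, 0 genes). With both lists restricted to at least 100, 54 and 35 peaks had no partner (15.4% and 10.4%, 0 genes), and among the 1000 highest of each list 28 and 44 (8.89% and 13.0%, 0 genes). The fewer peaks kept in these settings lower the counts by construction. At scores of at least 50, the families kept 5 NAC, 3 WRKY, 1 homeobox and 0 MYB genes with a member. No paired analysis was possible because the input samples have no list and no value came from a test between groups. Leaving out a replicate gives no value, since the class needs both lists.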

Other observations

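In replicate 1 the narrowest single-replicate peaks included 2 of high score, which stood apart from the rise of score with width. The peak on AT1G32010 spanned 416 bp and scored 70.4 at chromosome 1, 11510206 to 11510621, and a second peak of replicate 1 alone, on AT1G32030, lay close by with 66.5 at 11514913 to 11516048. The peak on AT5G17165 spanned 529 bp and scored 70.4 at chromosome 5, 5644639 to 5645167. In contrast, replicate 2 had a peak of 2699 bp on AT3G01960 that scored 28.2. These peaks were picked after their values were seen.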
